A study of Mus musculus with 21 samples.

Results

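The axis by which liver endothelium instructs hepatocytes to make the iron hormone hepcidin was followed through 10 genes in whole livers with and without an endothelial deletion of Gata4. The genes were chosen by name: the BMP ligand genes Bmp2 and Bmp6, the hepcidin genes Hamp and Hamp2, the iron-axis regulators Tfr2 and Tmprss6, and the BMP-SMAD target genes Id1, Smad6, Smad7 and Atoh8. All 10 were measured, as 10 of the 25428 genes on the arrays, with 1 value per gene and liver.

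Whole-liver RNA of 21 mice was hybridised to Affymetrix arrays, 1 array per liver. The 10 knockout livers (labelled gata4-lsec-ko) came from crosses of the Clec4g-icre driver on C57BL/6N, in which the iCre recombinase is placed under the gene of the sinusoidal endothelial lectin Clec4g, with mice carrying a loxP-flanked Gata4 allele (Gata4tm1.1Sad). The 11 control livers came from siblings with the genotype label wt, and the sources used here do not say whether these carried the driver or a floxed allele alone. All mice had the diet labelled std, and the labels used here name no age or sex. The sample names carry numbers in 2 consecutive series, called run 1 (5 control and 4 knockout livers) and run 2 (6 control and 6 knockout livers) here; the labels do not say what the numbers stand for, and the fit held run beside genotype. In a liver lysate, fewer cells of a type and less RNA per cell cannot be told apart.

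Hepcidin is a peptide that hepatocytes release into the blood, where it binds the iron exporter ferroportin and lowers the entry of iron into plasma. Its transcription is driven by BMP2 and BMP6, which come mainly from sinusoidal endothelial cells and act on hepatocyte BMP receptors together with the coreceptor hemojuvelin, through phosphorylated SMAD proteins; the inflammatory cytokine IL-6 drives it separately through STAT3. SMAD signalling also switches on its own brakes, SMAD6 and SMAD7, and the transcription factor genes Id1 and Atoh8.

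The hepcidin genes are shown first by sequence, because the 2 copies differ by 1 base in the element through which SMAD proteins act. Mice carry Hamp and Hamp2 side by side on chromosome 7, on the minus strand. The 250 bases before each start site were taken from RefSeq (GRCm38.p6; chr7:30944030-30944279 for Hamp and chr7:30924182-30924431 for Hamp2). Capitals mark the letters GGCGCC, the core of the BMP-responsive element, and the STAT-type pattern TTCNNNGAA in Hamp, and the bases aligned with them in Hamp2.
Hamp: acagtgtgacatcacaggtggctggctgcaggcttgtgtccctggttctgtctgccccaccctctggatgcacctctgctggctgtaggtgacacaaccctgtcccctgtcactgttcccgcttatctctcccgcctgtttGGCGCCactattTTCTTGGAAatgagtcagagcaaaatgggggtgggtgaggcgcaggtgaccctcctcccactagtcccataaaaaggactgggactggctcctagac
Hamp2: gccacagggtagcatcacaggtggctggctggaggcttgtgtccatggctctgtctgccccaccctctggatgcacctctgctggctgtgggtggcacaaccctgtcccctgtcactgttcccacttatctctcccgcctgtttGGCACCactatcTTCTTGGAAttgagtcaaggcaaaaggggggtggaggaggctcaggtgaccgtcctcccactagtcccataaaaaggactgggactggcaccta

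The 2 upstream sequences were identical at 227 of 247 aligned bases (91.9%). The BMP-responsive core lay 109 to 104 bases before the Hamp start, and Hamp2 carried the single substitution G4A there, counted from 1 at the 5′ end of that core. The STAT-type pattern was the same in both, 97 to 89 bases before the start in Hamp and 94 to 86 in Hamp2. Searched on both strands over the 32851 promoter windows of this length in the RefSeq table, the core was present in 9.59% and the STAT-type pattern in 7.02%. Of the 10 genes, 6 had a promoter in that table, 8 windows in all with 3 for Tfr2, and only the Hamp window held the core.

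Patterns of other factors were shared by both copies. A GATA-type pattern, AGATAA, lay on the opposite strand 128 to 123 bases before the Hamp start and 125 to 120 before that of Hamp2, with a match in 9.99% of all windows. The E-box CANNTG occurred at 2 places in each of Hamp, Hamp2, Atoh8 and Bmp6 and in 66.2% of all windows, and the TATA pattern TATAAA, held by 12.4% of all windows, was in none of the 8. These are matches of letters only, and nothing bound there was measured.

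The comparison of the genotypes asked how this axis stands when sinusoidal endothelium lacks Gata4. Bmp2 fell, while Bmp6, both hepcidin genes, their regulators and the SMAD targets did not pass the test. Of the 10 genes, 1 was lower and none was higher at an adjusted p under 0.05 (limma with Benjamini-Hochberg adjustment over all genes), beside 4.05% of all genes lower and 3.28% higher (7.33% in either direction). At an unadjusted p under 0.05 there were 2 of the 10, Bmp2 and Tfr2, beside 22.4% of all genes. The median log2 difference of the 10 was 0.038, beside -0.013 over all genes.

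Bmp2, the endothelial BMP ligand, had log2 RMA signals of 5.08, 6.28 and 6.76 as lowest, median and highest of the control livers and 4.39, 4.98 and 5.69 in the knockout livers. Of 11 controls, 9 lay above the highest knockout liver, and 6 of 10 knockout livers lay below the lowest control. Controls averaged 6.17 ± 0.52 (SD, n = 11), whereas the knockout mean was 5.04 ± 0.39 (SD, n = 10). Knockout livers thus had 2.24-fold less Bmp2 signal (95% confidence interval 1.82 to 2.78), a log2 difference of -1.17 ± 0.15 (SE; limma adjusted p = 1.85e-04), below the control mean of the run in 10 of 10 livers.

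The genotypes were fully separated for Bmp2 in run 2 and overlapped in run 1. In run 2 the 6 controls lay from 6.28 to 6.76 and the 6 knockout livers from 4.77 to 5.69, with no overlap, which 1.73% of all genes showed in that direction and 1.38% in the other. In run 1 the 5 controls lay from 5.08 to 6.23 and the 4 knockout livers from 4.39 to 5.38, with control replicate 3 the one control below a knockout liver. A full separation in that direction was seen for 2.51% of all genes in run 1 and for 0.0393% in both runs. The difference was -1.38 ± 0.15 (SE) in run 2 (limma adjusted p = 0.0027) and -0.88 ± 0.24 in run 1 (limma adjusted p = 0.22). In run 1 alone 3 genes of all passed, 0.0118%, beside 5.06% in run 2 alone. The 2 differences were not shown to differ from each other (interaction -0.49 ± 0.28, limma adjusted p = 0.58). With both genotypes in 1 fit, Bmp2 was higher in run 2 by 0.58 ± 0.15 (limma adjusted p = 0.03), as was Tmprss6 by 0.32 ± 0.063 (limma adjusted p = 0.0055), 2 of the 10 genes beside 4.11% of all genes in either direction.

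Some markers of the cells that make Bmp2 were lower as well. In the sinusoidal endothelial list 6 of 13 genes fell, none rose and 7 did not pass. Among all genes 4.05% were lower and 3.28% higher, the background for both endothelial lists. The differences of the 13 sinusoidal genes ran from -0.92 to 0.58 (median -0.35). Stab1, a scavenger receptor, fell by 0.45 ± 0.085 (SE), the nuclease gene Dnase1l3 by 0.81 ± 0.17, the receptor gene Gpr182 by 0.55 ± 0.13 and Clec4g itself by 0.92 ± 0.23, a call lost without the run term (limma adjusted p = 0.053). The mean log2 level of that list ran from 6.59 to 7.54 in controls and from 6.29 to 6.99 in knockout livers, so it overlapped. Among 12 markers of all endothelium 1 rose, the sialomucin gene Emcn (0.999 ± 0.24), and 1 fell, the phosphatase gene Ptprb (-0.56 ± 0.11), with a median of 0.14 and list levels of 5.68 to 6.42 in controls and 5.90 to 6.67 in knockout livers. None of these markers was at 0, since log2 RMA values have no zero. The part of a change in vessel type or cell share in the fall of Bmp2 was not tested.

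Bmp6, the ligand whose endothelial expression rises with iron load, spread widely in both genotypes. Its log2 signals were 3.91, 5.15 and 5.52 (lowest, median, highest) in controls and 4.01, 4.86 and 5.86 in knockout livers. The groups overlapped almost wholly, with 5 of 10 knockout livers above and 5 below the control mean of their run. Its difference was -0.24 ± 0.24 (SE; 95% interval -0.73 to 0.25; limma adjusted p = 0.61), an interval that reaches a 1.66-fold lower level.

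**Figure D1:**
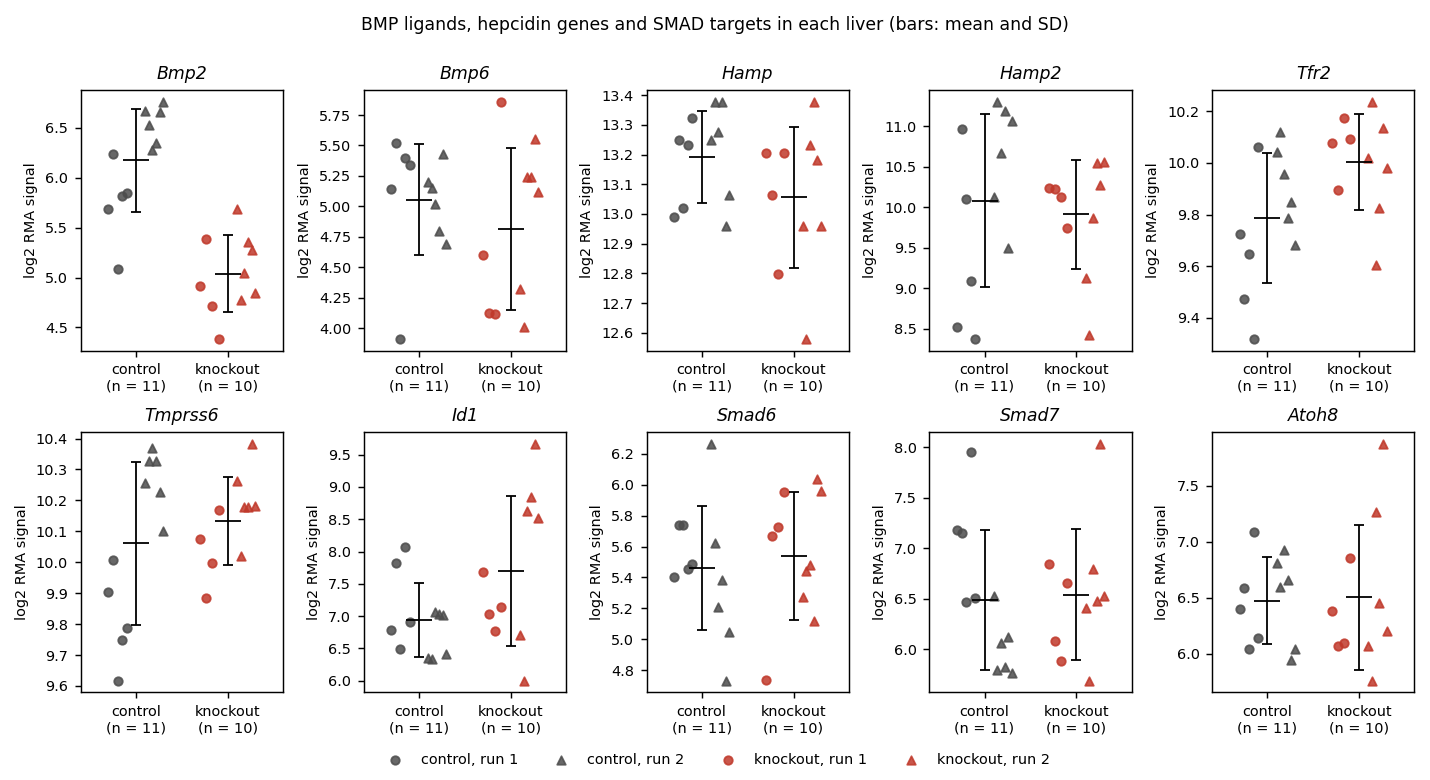
Log2 RMA signal (vertical axis, own scale in each panel) of the 10 genes in 11 control and 10 knockout livers; each point is 1 liver, circles are run 1 and triangles run 2, and bars give mean and SD. Bmp2 is the one gene whose knockout livers lie low as a group (4.39 to 5.69, against 5.08 to 6.76 in controls); 4 knockout livers of run 2 lie above all controls for Id1.

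Hamp, the hepcidin gene proper, had a signal close to its control level. Its log2 signals were 12.96, 13.25 and 13.38 in controls and 12.58, 13.12 and 13.38 in knockout livers (lowest, median, highest). The highest values of both groups were the same, and the 2 knockout livers below every control were replicates 3 and 6. The difference was -0.14 ± 0.086 (SE; 95% interval -0.32 to 0.043; limma adjusted p = 0.38). That interval runs from a 1.25-fold lower to a 1.03-fold higher signal. Hamp was among the brightest genes of these arrays, with 99.96% of all genes at a lower mean level and the highest value of any gene at 13.81. The sorted values of the 21 arrays differed by at most 0.0019 at any place, since RMA gives all arrays 1 distribution. At that end of the scale a value therefore mainly gives the rank of Hamp among the brightest genes. The highest values of Hpx in knockout livers and of Cyp2e1 in controls (both described below) were also 13.38. The interval thus bounds this signal and not the amount of hepcidin RNA. Whether differences are compressed there was not tested. Without knockout replicate 6 the difference was -0.084.

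Hamp2, the second copy, varied far more between animals than between genotypes. Its log2 signals were 8.38, 10.13 and 11.30 in controls and 8.42, 10.17 and 10.55 in knockout livers. Knockout livers lay inside the control range throughout, and 5 controls were above all of them. The difference was -0.20 ± 0.36 (SE; limma adjusted p = 0.81), with 0.67 ± 0.48 in run 1 and -0.84 ± 0.40 in run 2. That turn of sign between runs did not pass its own test (interaction -1.51 ± 0.66, unadjusted p = 0.033, limma adjusted p = 0.44). Transcripts of the 2 copies are alike and their probes may share signal, so the value of each is uncertain.

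Tfr2 encodes transferrin receptor 2, a hepatocyte sensor of iron-loaded transferrin that favours hepcidin. Its log2 signals were 9.32, 9.79 and 10.12 in controls and 9.61, 10.05 and 10.24 in knockout livers. Knockout livers lay above the control mean of their run in 8 of 10, and 3 were above all controls. The difference of 0.21 ± 0.095 (SE; 95% interval 0.015 to 0.41; unadjusted p = 0.037) did not pass over all genes (limma adjusted p = 0.19), and was 0.41 ± 0.14 in run 1 and 0.061 ± 0.11 in run 2.

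Tmprss6 encodes matriptase-2, a hepatocyte protease that cleaves hemojuvelin and so restrains hepcidin. It had the smallest SD of the 10 genes once genotype and run means were removed (0.12), though not in the control values as they stand. Its log2 signals were 9.62, 10.10 and 10.37 in controls and 9.88, 10.17 and 10.38 in knockout livers. The genotypes overlapped and the 3 lowest values were controls of run 1. The difference was 0.055 ± 0.063 (SE; 95% interval -0.076 to 0.18; limma adjusted p = 0.67).

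Id1 encodes an inhibitor of helix-loop-helix transcription factors and is among the most used readouts of BMP-SMAD activity. Its log2 signals were 6.33, 6.91 and 8.06 in controls and 6.00, 7.41 and 9.67 in knockout livers. Knockout livers were both the highest and the lowest of all: replicates 7, 8, 9 and 10, all of run 2, lay above every control (8.63, 8.85, 9.67 and 8.51), while replicate 6 of the same run was below every control. The difference was 0.76 ± 0.38 (SE; 95% interval -0.025 to 1.54; limma adjusted p = 0.24), 1.36 ± 0.52 in run 2 and -0.061 ± 0.33 in run 1. The change of that difference between runs did not pass (interaction 1.42 ± 0.71, limma adjusted p = 0.51). The SD of Id1 was 0.57 in controls and 1.17 in knockout livers. After removal of genotype and run means, 99.4% of all genes varied less between livers than Id1.

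The 2 inhibitory SMAD genes, whose products block receptors and receptor-bound SMADs, showed no genotype difference past the test. Smad6 had log2 signals of 4.73, 5.46 and 6.27 in controls and 4.73, 5.57 and 6.04 in knockout livers, a full overlap (difference 0.082 ± 0.17, SE; 95% interval -0.27 to 0.44; limma adjusted p = 0.84). Smad7 had 5.77, 6.47 and 7.95 in controls and 5.69, 6.50 and 8.03 in knockout livers (difference 0.075 ± 0.27; 95% interval -0.48 to 0.63; limma adjusted p = 0.91). Smad7 was 0.68 ± 0.32 lower in the knockout livers of run 1 and 0.64 ± 0.30 higher in those of run 2, without passing in either (limma adjusted p = 0.44 and 0.23). This turn of sign had the lowest unadjusted interaction p of the 10 genes (interaction 1.32 ± 0.47; p = 0.010, limma adjusted p = 0.30).

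Atoh8, a helix-loop-helix transcription factor gene of hepatocytes that responds to BMP and iron, had log2 signals of 5.95, 6.58 and 7.08 in controls and 5.76, 6.29 and 7.87 in knockout livers. The knockout range enclosed the control range, with replicates 7 and 9 above and replicate 6 below all controls. The difference was 0.021 ± 0.22 (SE; 95% interval -0.43 to 0.48; limma adjusted p = 0.97), and its sign turned without any 1 of 7 livers.

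No interaction of genotype with run passed for any of the 10 genes (limma; 0.0315% of all genes passed), 3 had an unadjusted p under 0.05 beside 10.2% of all genes, and 6 of the 10 had opposite signs in the 2 runs. Bmp2, Bmp6, Hamp and Tfr2 kept 1 sign in both.

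**Figure D2:**
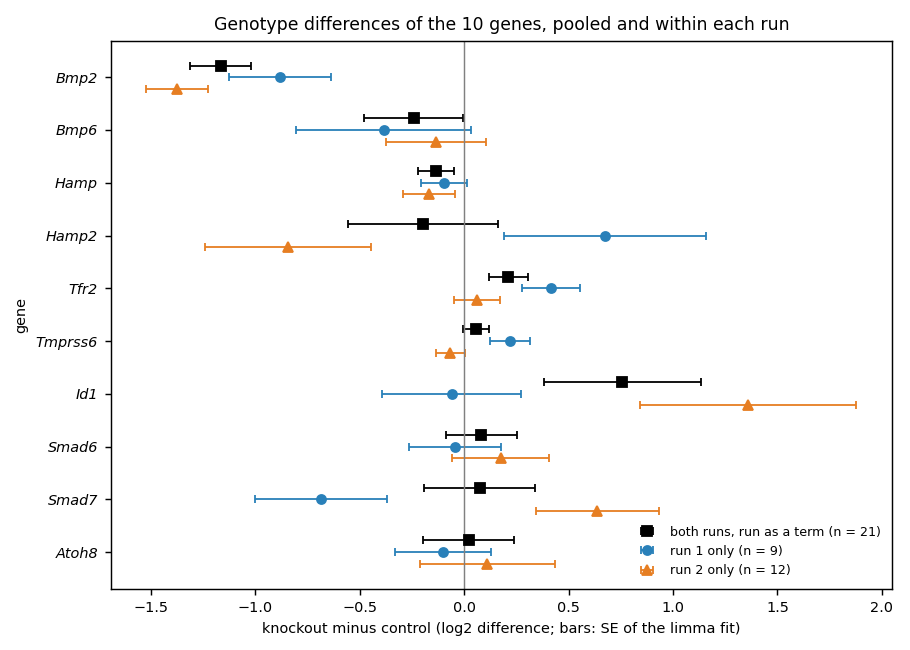
Knockout minus control in log2 units (horizontal axis) for each of the 10 genes (vertical axis), from the fit over both runs (squares, 21 livers), run 1 only (circles, 9 livers) and run 2 only (triangles, 12 livers); bars are the standard error of the limma fit. Bmp2 lies left of 0 in all 3 fits (-1.17, -0.88 and -1.38), and Smad7 and Hamp2 lie on opposite sides of 0 in the 2 runs.

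Within genotype and run, several of the genes varied together from liver to liver, and neither of the 2 pairs with Bmp2 passed. Each value was reduced by the mean of its genotype and run, and 10 chosen pairs were compared over 21 livers with 100000 permutations (two-sided) within genotype and run, adjusted over the 10 pairs. By Pearson's r 5 pairs passed and by Spearman's rho 4. Bmp6 and Id1 had r = 0.66 (permutation p = 0.0019, adjusted 0.0097) and rho = 0.71 (permutation p = 0.0020, adjusted 0.020), and r = 0.79 without the 2 livers farthest from the Bmp6 median. Id1 and Smad7 had r = 0.74 (permutation p = 0.0014, adjusted 0.0097) and rho = 0.65 (permutation p = 0.0066, adjusted 0.033), and r = 0.51 without the 2 farthest livers, knockout replicates 6 and 9 (permutation p = 0.022). In both pairs r was positive in each run, at 0.51 and 0.89 for Bmp6 with Id1 and 0.83 and 0.74 for Id1 with Smad7.

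Hamp shared in this variation with a weaker footing, and with higher r in knockout livers than in controls. Among controls r was 0.28 for Bmp6 with Hamp and 0.27 for Id1 with Hamp, against 0.73 and 0.79 in knockout livers. For Id1 with Atoh8 it was 0.53 in controls and 0.77 in knockout livers. Whether r differs between the genotypes was not tested. Bmp6 and Hamp had r = 0.58 (permutation p = 0.012, adjusted 0.024) and rho = 0.48 (permutation p = 0.042, adjusted 0.084), with r = 0.59 without the 2 farthest livers and 0.65 and 0.60 in the runs. Id1 and Hamp had r = 0.65 (permutation p = 0.0091, adjusted 0.024) and rho = 0.57 (permutation p = 0.014, adjusted 0.035), with 0.61 and 0.67 in the runs. Id1 and Atoh8 had r = 0.71 (permutation p = 0.012, adjusted 0.024) and rho = 0.61 (permutation p = 0.013, adjusted 0.035), with 0.74 and 0.71 in the runs. Without knockout replicates 6 and 9, the last 2 relations fell to r = 0.48 (unadjusted permutation p = 0.055) and r = 0.49 (unadjusted permutation p = 0.088) over 19 livers. They were thus weaker without that pair of livers. Without replicate 9 alone, r was 0.66 for Id1 with Hamp and 0.62 for Id1 with Atoh8. Knockout replicate 6 had the lowest value of all 21 livers for Hamp, Id1, Smad7 and Atoh8, and replicate 9 the highest for Id1, Smad7 and Atoh8.

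The other 5 pairs did not pass. Bmp2 had r = 0.22 with Hamp (permutation p = 0.39, adjusted 0.49; rho = 0.077, permutation p = 0.76, adjusted 0.83) and r = 0.17 with Id1 (permutation p = 0.53, adjusted 0.59; rho = 0.19, permutation p = 0.46, adjusted 0.57). Without the 2 farthest livers these were 0.25 and 0.084. For Bmp2 with Id1 the value was 0.51 in run 1, -0.00095 in run 2 and 0.40 in controls, and for Bmp2 with Hamp it was 0.30 in run 1 and 0.18 in run 2. Id1 and Smad6 had r = 0.011 (permutation p = 0.96, adjusted 0.96; rho = -0.051, permutation p = 0.83, adjusted 0.83), and -0.22 without the 2 farthest. Smad7 and Hamp had r = 0.44 (permutation p = 0.11, adjusted 0.15; rho = 0.33, permutation p = 0.17, adjusted 0.24), and 0.46 without the 2 farthest. Hamp and Hamp2 had r = 0.46 (permutation p = 0.049, adjusted 0.082; rho = 0.40, permutation p = 0.10, adjusted 0.17), and 0.33 without the 2 farthest, with -0.035 in run 1 and 0.75 in run 2.

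**Figure D3:**
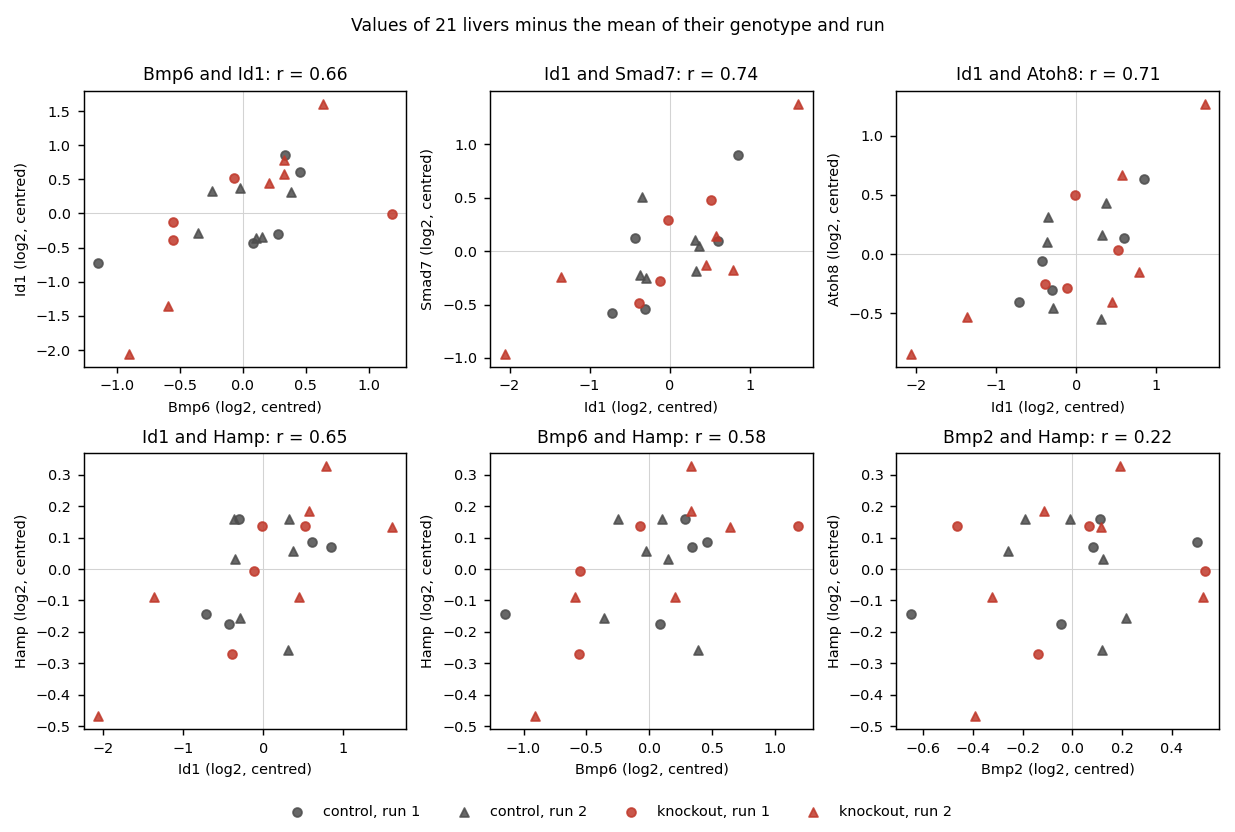
Values of 6 gene pairs in 21 livers, each minus the mean of its genotype and run (both axes in log2 units); grey points are control and red points knockout livers, circles run 1 and triangles run 2, and r is Pearson's. Bmp6 rises with Id1 (r = 0.66) and Id1 with Smad7 (r = 0.74), and Bmp2 with Hamp has r = 0.22, which did not pass.

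The genes that followed each of Bmp2, Hamp and Id1 most closely, by Pearson's r of these reduced values over 21 livers among 20657 named genes, are a description without a test. Nearest to Bmp2 were the mitochondrial enoyl-CoA isomerase gene Eci1 (r = 0.77), Hcfc1r1 (r = 0.77) and the acyl-CoA dehydrogenase gene Acad11 (r = 0.77). Nearest to Hamp were the N-acetylglucosamine kinase gene Nagk (r = 0.79), the autophagy gene Atg2a (r = 0.78) and Mta1 (r = 0.77). Nearest to Id1 were the apolipoprotein gene Apoa5 (r = 0.89), Whamm (r = 0.87) and the GABA receptor gene Gabbr2 (r = 0.86). Smad7 stood at place 31 in the order for Id1 and Atoh8 at place 65. Bmp6 was at place 7572 in the order for Bmp2 (r = 0.11).

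Around the 10 genes, 115 of 117 other genes of the pathway were measured in 8 lists that overlap in a few genes. Other BMP ligand genes had 2 of 14 members higher and none lower, with a median difference of 0.03, beside 3.28% higher and 4.05% lower among all genes, the background for each list count that follows. Gdf2, which encodes BMP9, a circulating ligand made by stellate cells, had 5.31, 5.69 and 6.35 in controls and 5.92, 6.14 and 6.47 in knockout livers (lowest, median, highest). It was above the control mean of the run in 10 of 10 knockout livers, with overlap of the groups, and rose by 0.42 ± 0.10 (SE; limma adjusted p = 0.014). Gdf10, which encodes BMP3B, rose by 0.57 ± 0.17 (limma adjusted p = 0.043) with 0.14 for run 1 and 0.88 for run 2, and leaving out single livers ended its call in 13 cases (limma adjusted p at most 0.081). Of 12 stellate cell markers 5 rose and none fell, with differences from -0.21 to 0.96 and a median of 0.35. List levels were 6.75 to 7.36 in controls and 7.25 to 7.68 in knockout livers. Among the 5 were the globin gene Cygb (0.96 ± 0.15), the PDGF receptor gene Pdgfrb (0.59 ± 0.12) and Rgs5 (0.79 ± 0.16). The part of stellate cells in Gdf2 and Gdf10 was not tested.

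Few receptor genes and no transducer gene passed. Of 13 BMP receptor and coreceptor genes, 2 rose and none fell, with differences from -0.21 to 0.48 and a median of -0.003: the endothelial coreceptor endoglin (Eng, 0.48 ± 0.13, SE; limma adjusted p = 0.029) and Rgmb, a relative of hemojuvelin (0.21 ± 0.06; limma adjusted p = 0.037). Leaving out 1 liver ended the call in 5 of 21 cases for Eng and in 11 for Rgmb, knockout replicate 3 among them for both. Rgmb also did not pass without the run term (limma adjusted p = 0.0502) or with an intensity trend and robust prior (limma adjusted p = 0.076). None of the 6 SMAD transducer genes passed (differences from -0.17 to 0.27, median -0.02); the lowest p was that of Smad5, one of the BMP-regulated SMADs (-0.17 ± 0.07; limma adjusted p = 0.12, unadjusted p = 0.018).

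Antagonists and targets changed in single members. Of 20 antagonist and modulator genes 2 rose and 1 fell, with a median of 0.01. The BMP-binding membrane protein gene Crim1 rose by 0.51 ± 0.13 (SE; limma adjusted p = 0.025) and Twsg1, twisted gastrulation, by 0.29 ± 0.08 (limma adjusted p = 0.033); leaving out 1 liver ended this call in 9 cases. Fstl3, a follistatin-like binder of activins, fell by 0.31 ± 0.08 (limma adjusted p = 0.022), below the control mean of the run in 10 of 10 knockout livers. Among 12 other BMP-SMAD target genes 1 rose and none fell (median -0.02). This was Hey1, a transcription factor gene shared with Notch signalling, with 3.49, 3.72 and 3.88 in controls and 3.75, 3.995 and 4.58 in knockout livers, near the array median of 3.75, and a difference of 0.42 ± 0.10 (limma adjusted p = 0.019).

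**Figure D4:**
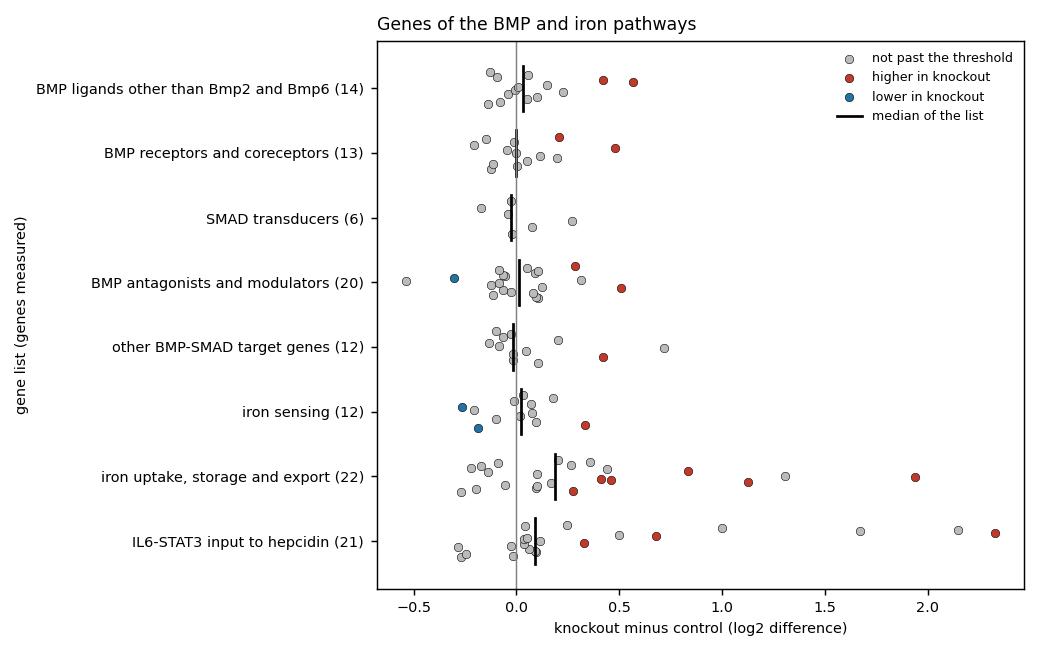
Knockout minus control in log2 units (horizontal axis) for the genes of 8 lists (vertical axis, number of genes measured in parentheses); each point is 1 gene, red and blue points passed as higher and lower, and black lines are list medians. The list of iron uptake, storage and export has 6 of 22 genes higher and the largest median, 0.19.

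Iron sensors of cells changed by small amounts. Of 12 iron sensing genes 2 fell and 1 rose, with a median of 0.02. The 2 that fell are the cytosolic iron regulatory proteins, which bind iron-responsive elements of transcripts when iron is scarce. Aco1 had 9.90, 10.08 and 10.22 in controls and 9.70, 9.89 and 10.01 in knockout livers and fell by 0.19 ± 0.05 (SE; limma adjusted p = 0.02). Ireb2 had 7.93, 8.19 and 8.49 in controls and 7.32, 8.03 and 8.25 in knockout livers and fell by 0.26 ± 0.07 (limma adjusted p = 0.032); the call ended in 5 cases of 1 liver left out, and without the run term (limma adjusted p = 0.17). Both were below the control mean of the run in 10 of 10 knockout livers, with the groups overlapping. B2m, the partner chain of HFE and of all class I antigens, rose by 0.34 ± 0.08 (limma adjusted p = 0.019), and did not pass without the run term (limma adjusted p = 0.053).

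Genes of iron uptake, storage and export had 6 of 22 members higher and none lower, with a median of 0.19. Hmox1, the heme oxygenase that frees iron from heme, had 5.25, 5.63 and 6.18 in controls and 6.07, 6.68 and 7.39 in knockout livers, with 9 of 10 knockout livers above every control, and rose by 1.12 ± 0.15 (SE; limma adjusted p = 2.81e-04). Hpx, the plasma heme binder hemopexin, had 12.54, 12.73 and 12.99 in controls and 12.78, 13.18 and 13.38 in knockout livers and rose by 0.41 ± 0.08 (limma adjusted p = 0.0036). Lcn2, a siderophore-binding lipocalin, had 8.55, 9.44 and 12.06 in controls and 10.45, 11.17 and 13.25 in knockout livers and rose by 1.94 ± 0.39 (limma adjusted p = 0.0056). Of 12 Kupffer cell markers 6 rose and none passed as lower, with differences from -0.52 to 1.46 and a median of 0.66. List levels were 5.27 to 7.20 in controls and 6.30 to 7.49 in knockout livers. Lowest in p among the 6 were the complement genes C1qb (1.46 ± 0.24), C1qa (0.79 ± 0.16) and C1qc (1.16 ± 0.24). The part of Kupffer cells in the rise of Hmox1 and the other iron genes was not tested.

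The list for the cytokine route to hepcidin also holds acute phase genes. It had 3 of 21 members higher and none lower, with a median of 0.09, and Lbp and Orm2 of these are acute phase genes. Lbp, the acute phase binder of lipopolysaccharide, had 9.28, 9.62 and 10.27 in controls and 9.90, 10.26 and 10.87 in knockout livers and rose by 0.68 ± 0.12 (SE; limma adjusted p = 0.0024). The acute phase gene Orm2 rose by 2.33 ± 0.62 (limma adjusted p = 0.028) with 7.48 to 12.87 among knockout livers; leaving out knockout replicate 3 or 4 ended the call. The IL-6 receptor gene Il6ra rose by 0.33 ± 0.10 (limma adjusted p = 0.039); that call ended in 13 cases of 1 liver left out, and without the run term (limma adjusted p = 0.38). Without knockout replicate 3, 11 of the pathway genes rose in place of 17.

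The remaining marker lists and the deleted gene set the frame. The hepatocyte list levels lie at the same bright end of the scale as Hamp. None of 11 hepatocyte markers passed (median 0.007; list levels of 12.83 to 12.91 in controls and 12.77 to 12.91 in knockout livers), the lowest p being that of the cytochrome gene Cyp2e1 (-0.31 ± 0.10, SE; limma adjusted p = 0.051), which passed as lower with low genes left out (limma adjusted p = 0.036), with an intensity trend and robust prior (limma adjusted p = 0.044) and in 4 of 21 fits without 1 liver. None of 9 erythroid markers passed (median -0.002; list levels of 3.39 to 3.79 and 3.39 to 3.98), the lowest p being that of Hemgn (0.15 ± 0.06; limma adjusted p = 0.13), and 7 of the 9 lay below the array median. Gata4 itself had 6.34, 6.68 and 7.35 in controls and 6.10, 6.51 and 6.92 in knockout livers, overlapping, with a difference of -0.19 ± 0.10 (limma adjusted p = 0.26). Where its probes lie relative to the loxP sites is not stated, and the lysate holds RNA of all liver cells, not only of sinusoidal endothelium. This value therefore does not check the labels.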

How the data were processed

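The values analysed are the deposited log2 signals, which the submitters' processing notes trace to RMA, a method that subtracts background and gives all arrays 1 distribution. RMA version, array design and build are not given in the sources used here; scanner files were not used, and the precision is set by the number of arrays. Gene names came from the platform annotation (24705 of 25428 rows with 1 symbol). Genotype was tested with limma 3.58.1 in R 4.3.3 over all 21 arrays with genotype and run as terms and no filter on low values; the threshold was an adjusted p of 0.05 over all 25428 genes. The labels call the samples biological replicates, and each was taken as 1 animal. On simulated data of 25428 genes the fit recovered 74% of 100 genes changed by 0.5 and 92% of 100 changed by 1 (log2). There were 11 false calls among the genes left unchanged. The changed genes were drawn from all rows, whose median SE was 0.078. Bmp6, Hamp2, Id1, Smad6, Smad7 and Atoh8 varied more between livers than at least 94.6% of all genes, with SEs from 0.17 to 0.38. The shares recovered do not hold for them.

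The 10 genes, the 14 lists and the tests were chosen with earlier results of these data known. Genes named are the 10, Gata4 and Clec4g, up to 3 per list and direction with the lowest adjusted p that passed (or the 1 with the lowest p), and the 3 most like each of Bmp2, Hamp and Id1. Alternatives were no run term, each run alone, a block on the replicate number, a second quantile normalization, median centring, leaving out genes under the median level, an intensity trend with robust prior, array weights, and leaving out each array. Figures were drawn with matplotlib 3.10.9.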

Additional observations from a re-analysis of the deposited data

Results flagged for a closer look

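In 5 of the 52 genes named, 1 knockout liver stood apart from the other 9 by Dixon's ratio, which chance alone gives in about 1 of 20 groups. Smad7 was highest in knockout replicate 9, at 8.03 against 6.84 in the next liver. The same liver was highest for the erythroid marker Hemgn, at 3.58 against 3.33. Knockout replicate 6 was lowest for 2 genes that followed Hamp, Nagk at 5.06 against 5.52 and Mta1 at 7.19 against 7.52. These 2 were named because they followed Hamp, which was also lowest in that liver. The chance share therefore does not hold for them. Knockout replicate 1 was lowest for the sinusoidal marker Dnase1l3, at 6.12 against 6.88. The control group of 11 was not examined in this way.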

How the results depend on the processing

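Bmp2 was lower and past the threshold without each liver in turn (-1.25 to -1.11) and under every alternative but run 1 alone, where it was -0.88 (limma adjusted p = 0.22) and 0 of the 10 genes passed; none of the other 9 passed under any of the 30 alternatives. Signs turned in run 1 alone for Hamp2 (0.67), Id1 (-0.061), Smad6 (-0.043), Smad7 (-0.68), Atoh8 (-0.10), Hcfc1r1 (0.027), Nagk (-0.085), Apoa5 (0.099) and Gabbr2 (0.093), and in run 2 alone for Tmprss6 (-0.066). With the replicate number as a block, Smad7 was -0.011, Atoh8 -0.0086 and Bmp2 -1.18 (limma adjusted p = 0.0044); with array weights Atoh8 was -0.065. The block also ended the calls of Clec4g, Gdf10, Eng, Rgmb, Twsg1, Aco1, Ireb2, Il6ra, Emcn and C1qc (limma adjusted p from 0.051 to 0.13). The labels used here name no pairs, and control replicate 5 was in run 1 while knockout replicate 5 was in run 2. Deviations of same-numbered livers correlated from -0.055 to 0.17, above 0.1 in 2 of 10 pairs. Such values alone cannot show whether livers were paired. Without single livers Smad7 ran from -0.11 to 0.20, Atoh8 from -0.12 to 0.11, Hcfc1r1 from -0.077 to 0.021 and Apoa5 from -0.087 to 0.10. Of all genes, 834 were higher and 1030 lower, against 2 and 1 in run 1 alone, 552 higher in run 2 alone and 602 lower with the block, and 565 to 981 higher and 629 to 1471 lower without single livers. Of the pathway genes 17 were higher and 3 lower, against 0 and 0 in run 1 alone, 10 and 0 in run 2 alone, 11 higher with the block, and 11 to 18 and 2 to 4 without single livers. Correlations turned sign for Bmp2 with Id1 in run 2 (-0.00095), Hamp with Hamp2 in run 1 (-0.035) and Id1 with Smad6 by Spearman (-0.051), in run 1 (-0.36) and without 2 livers (-0.22). The cause of these shifts was not tested. Fits within 1 run also hold fewer arrays. Dim genes such as Hey1 may lie near background.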
